A study of Mus musculus with 4 samples.

Results

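The genes described here encode 9 serotonin receptors, Htr1a, Htr1b, Htr1d, Htr2a, Htr2c, Htr3a, Htr4, Htr6 and Htr7, which were taken by symbol from the 25259 genes of the deposited expression table. All 9 had a mean value of at least 10 and were tested, as were 19561 of the 25259 genes. The study sequenced messenger RNA of the mouse striatum, the input nucleus of the basal ganglia, after laser capture of its dorsomedial part (DMS) or its dorsolateral part (DLS). The groups were Foxp2hum/hum DMS with 12 libraries, wild-type DMS with 11, Foxp2hum/hum DLS with 12 and wild-type DLS with 11. Mice of all groups were of the C57BL/6 strain and 8 weeks old. Foxp2hum/hum mice carried a humanised Foxp2 allele on both chromosomes, and wild-type mice carried the mouse allele. The humanised allele changes the protein and leaves the gene in place, so the level of Foxp2 RNA does not check the genotype labels. The labels do not say which animal each library came from, and a pair of libraries from both regions may share an animal. P-values therefore measure the spread between libraries.

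Serotonin reaches the striatum through axons of the raphe nuclei of the brainstem, and the receptors read it in several ways. Htr1 family receptors couple to Gi and Go proteins and lower cyclic AMP, Htr2 family receptors couple to Gq and phospholipase C, and Htr4, Htr6 and Htr7 couple to Gs and raise cyclic AMP. Htr3a is different in kind: it encodes a subunit of an ion channel that serotonin opens directly. In the striatum Htr1b, Htr2c, Htr4 and Htr6 are known from projection neurons, the GABA-releasing cells that make up most of the tissue, and Htr2c is also known for its high level in the choroid plexus.

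The recovered read counts of all genes summed to between 16.79 M and 41.01 M (M for mega) per library. A read in bases shared by genes can count more than once in this sum. Striatal projection neuron markers, such as Ppp1r1b, Drd1a and Penk, were present in every group, with a median summed normalised read count of 100400 in Foxp2hum/hum DMS, 103300 in wild-type DMS, 141100 in Foxp2hum/hum DLS and 142700 in wild-type DLS. Of these 9 markers, 8 were lower in DMS than in DLS over both genotypes and 0 were higher, where 15.3% of all genes tested were lower and 16.5% higher. Markers of tissue that borders the ventricle went the other way: 5 of 5 ependymal markers, 4 of 4 markers of immature neurons and the subventricular zone, and 3 of 5 choroid plexus markers tested were higher in DMS. The ependymal sum ran from 374.7 to 1319 in Foxp2hum/hum DMS and from 249.9 to 1345 in wild-type DMS, against 76.5 to 218.7 in Foxp2hum/hum DLS and 66.07 to 147.2 in wild-type DLS. The choroid plexus sum ran from 227.7 to 6786 in Foxp2hum/hum DMS and from 196.7 to 10640 in wild-type DMS, against 99.63 to 257.5 in Foxp2hum/hum DLS and 115.7 to 332 in wild-type DLS. The ependymal gene Ccdc153 had a median of 0 in wild-type DLS libraries. These markers moved with region and 0 of them passed the test between genotypes. Choroid plexus content was still uneven between genotypes in DMS, with a median sum of 992.8 in Foxp2hum/hum and 312 in wild-type. In DLS these medians were 130.2 and 173.2. For the choroid plexus gene Ttr the DMS medians were 658.7 in Foxp2hum/hum and 40.8 in wild-type, and the DLS medians 1.777 and 1.088.

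The 250 bases before the start of each of 3 receptor genes that differed between regions are shown, with every CG dinucleotide in capitals to show where each gene starts and how the Htr6 window differs from the other two in base composition. The sequences are RefSeq's, found once each and without mismatch in the mm9 build, and run 5' to 3' on the strand of the gene. Htr6 lies on the minus strand of chromosome 4 and its window is chr4:138631486-138631735. Htr1d lies on the plus strand of the same chromosome, with the window chr4:135979189-135979438. Htr2c lies on the plus strand of the X chromosome, with the window chrX:143396806-143397055.
Htr6: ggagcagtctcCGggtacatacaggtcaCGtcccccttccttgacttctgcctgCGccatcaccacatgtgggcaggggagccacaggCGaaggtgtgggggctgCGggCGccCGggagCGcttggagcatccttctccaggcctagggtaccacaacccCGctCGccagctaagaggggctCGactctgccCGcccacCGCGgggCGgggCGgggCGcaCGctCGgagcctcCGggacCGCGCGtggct
Htr1d: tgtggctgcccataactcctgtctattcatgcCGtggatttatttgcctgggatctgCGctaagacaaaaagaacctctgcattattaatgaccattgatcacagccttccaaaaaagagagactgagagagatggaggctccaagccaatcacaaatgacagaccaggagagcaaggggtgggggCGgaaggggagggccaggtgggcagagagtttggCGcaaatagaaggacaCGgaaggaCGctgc
Htr2c: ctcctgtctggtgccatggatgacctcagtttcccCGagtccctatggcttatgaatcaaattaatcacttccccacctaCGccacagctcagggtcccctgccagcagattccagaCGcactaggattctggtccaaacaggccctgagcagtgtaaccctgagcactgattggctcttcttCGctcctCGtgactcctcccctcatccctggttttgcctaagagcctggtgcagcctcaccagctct
The Htr6 window holds 23 CG dinucleotides at a GC content of 70.8%, and 13.3% of the 32851 RefSeq promoter windows of the same length hold as many. The Htr1d window holds 6 CG dinucleotides at a GC content of 51.6%, a number reached by 50.4% of the windows. The Htr2c window holds 5 at a GC content of 55.6%, a number reached by 55.6% of the windows. The forkhead motifs TGTTTAC and TATTTAT and the cyclic AMP response element TGACGTCA, searched on both strands, had 0 matches in any of the 3 windows, and are present in 3.17%, 5.17% and 1.55% of all windows.

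The regional comparison asks whether the receptor genes differ between the dorsomedial striatum, which is tied to early goal-directed learning, and the dorsolateral striatum, which is tied to habits. Over both genotypes Htr6 and Htr2c were higher in DMS than in DLS and Htr1d was lower. These 3 of 9 receptor genes passed limma's test at an adjusted p under 0.05, against 31.8% of all genes tested, which is close to the receptor genes' own share. Within Foxp2hum/hum 1 of 9 passed, against 18.1% of all genes, and within wild-type 2 of 9 passed, against 17.3%. The count in Foxp2hum/hum was 2, with Htr2c added, when any of libraries 4, 18, 27, 34, 64, 70, 74, 76, 83, 88, 89, 90 or 94 was left out, and the count over both genotypes was 6 without wild-type DMS library 65, with Htr2a, Htr3a and Htr4 added. The median log2 difference of the 9 genes over both genotypes was 0.27, against 0.01 for all genes tested, and 8 of 9 had the same sign in both genotypes, the exception being Htr1a. In a bulk tissue sample, fewer cells of a type and less RNA per cell cannot be told apart.

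**Figure D1:**
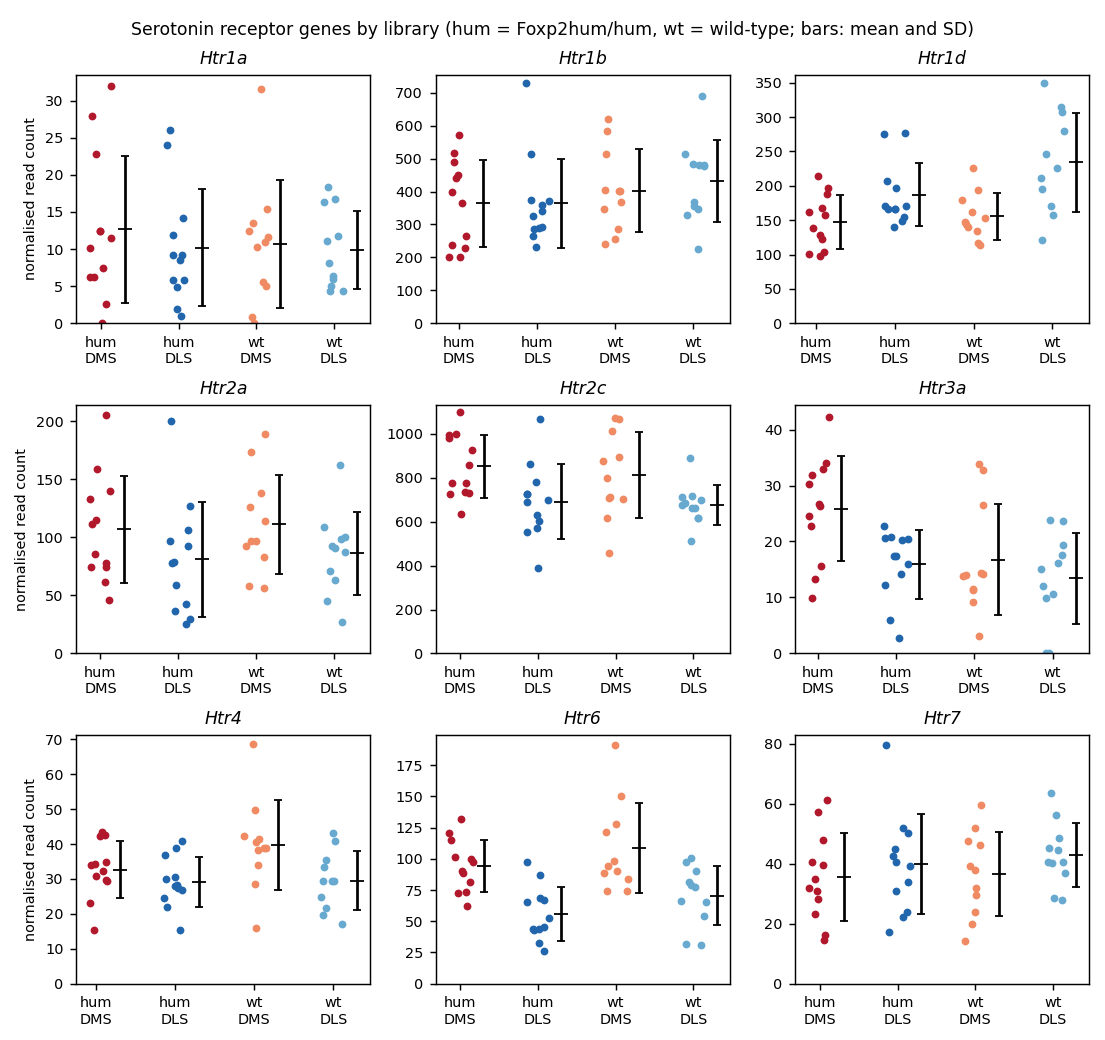
Normalised read count of each of the 9 serotonin receptor genes in every library (points), with mean and SD beside each group; the y axis differs between genes. Htr6 is higher in DMS than in DLS in both genotypes, with means of 94.56 and 108.6 against 56.1 and 70.47, and Htr1d lies the other way.

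Htr6 encodes a Gs-coupled receptor known for its high level in the striatum. It lies at chr4:138617023-138631485 on mm9 in 4 exonic blocks. Its normalised read count ran from 62.06 through a median of 93.97 to 132 in Foxp2hum/hum DMS, against 25.78, 49.35 and 97.7 in Foxp2hum/hum DLS. All 12 Foxp2hum/hum DMS libraries lay above the median of Foxp2hum/hum DLS, although the ranges overlapped. In wild-type DMS the lowest, median and highest values were 74.11, 94.11 and 191, against 31.15, 77.34 and 100.5 in wild-type DLS. Here 9 of 11 DMS libraries lay above the DLS median, and the ranges again overlapped. The log2 difference between DMS and DLS was 0.81 ± 0.19 (SE) in Foxp2hum/hum, a fold of 1.75, and the limma adjusted p was 0.00148. In wild-type it was 0.65 ± 0.20 (SE), a fold of 1.57, with a limma adjusted p of 0.0182. Over both genotypes Htr6 was 1.65-fold higher in DMS with a limma adjusted p of 3.97e-05. The regional differences of the genotypes were not shown to differ, with an interaction of 0.16 ± 0.28 (SE) and a limma adjusted p of 1.

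Markers of immature neurons and the subventricular zone were higher in DMS, as was Htr6. Dcx, a microtubule protein of migrating young neurons, ran from 148.7 to 845.1 in Foxp2hum/hum DMS libraries and its median was 311.7, against a median of 46.68 in Foxp2hum/hum DLS. In wild-type the Dcx medians were 260.1 in DMS and 53.18 in DLS. Across the 46 libraries the log2 levels of Htr6 and Dcx had a Pearson r of 0.69, and 0.47 once each group's mean was subtracted. For Lhx6, a transcription factor of interneurons, these values were 0.63 and 0.48. Interneuron markers went both ways: of 9 tested, 2 were higher and 4 lower in DMS over both genotypes, against 16.5% and 15.3% of all genes. Some markers that were lower in DMS gave like values within groups. There r was 0.44 for Drd2 and 0.44 for Chat, an enzyme of cholinergic interneurons, against -0.37 and -0.21 over all libraries. Drd1a, also lower in DMS, had 0.16 within groups and -0.30 over all libraries. Other markers higher in DMS had lower values within groups. These were -0.25 for Ccdc153, -0.07 for Gfap and 0.06 for Ttr, against 0.48, 0.40 and 0.41 over all libraries. Libraries share depth and tissue composition, and the part of these markers in the Htr6 difference was not tested by this r. With Ttr, the main choroid plexus transcript, as a covariate, the log2 difference of Htr6 was 0.60 in wild-type with a limma adjusted p of 0.0715, and 0.75 in Foxp2hum/hum with a limma adjusted p of 0.0368.

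Htr1d encodes a Gi-coupled receptor that is closely related to Htr1b and known as a release-inhibiting receptor on axon terminals. It lies at chr4:135979439-136000313 on mm9 in 4 exonic blocks. In wild-type its lowest, median and highest normalised read counts were 113.5, 147 and 226.3 in DMS, against 121.4, 226.2 and 349.2 in DLS. Of 11 wild-type DMS libraries, 10 lay below the DLS median, and the ranges overlapped. In Foxp2hum/hum they were 97.87, 148.1 and 214.5 in DMS, against 140.4, 168.5 and 277 in DLS. Here 9 of 12 DMS libraries lay below the DLS median, and the ranges overlapped as well. In wild-type the log2 difference was -0.55 ± 0.16 (SE), 1.47-fold lower in DMS, with a limma adjusted p of 0.00851. In Foxp2hum/hum it was -0.35 ± 0.15 (SE) with a limma adjusted p of 0.105, which missed the threshold. Over both genotypes Htr1d was 1.37-fold lower in DMS with a limma adjusted p of 0.000884, and the interaction was 0.20 ± 0.22 (SE) with a limma adjusted p of 1.

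Of 9 projection neuron markers, 8 were lower in DMS over both genotypes, as was Htr1d, against 15.3% of all genes. Penk had means of 25680 in Foxp2hum/hum and 25720 in wild-type DMS, against 25010 and 25910 in DLS. Drd2, the dopamine receptor of striatopallidal neurons, had a median of 4654 in Foxp2hum/hum DMS and 4827 in wild-type DMS, against 7437 in Foxp2hum/hum DLS and 7989 in wild-type DLS. The log2 levels of Htr1d and Drd2 had a Pearson r of 0.63 over the 46 libraries, and 0.42 after the group means were subtracted. For Htr1d and Drd1a, the dopamine receptor of striatonigral neurons, the values were 0.44 and 0.13. With Chat, the enzyme of cholinergic interneurons, the values were 0.58 and 0.28. The part of these markers in the Htr1d difference was not tested. With both Ttr and Ccdc153 as covariates the log2 difference of Htr1d over both genotypes was 0.10, of opposite sign, with a limma adjusted p of 0.89. Ccdc153 itself was 78.3-fold higher in DMS, so this fit compares the regions with a stand-in for region among its terms, and the number of all genes called fell to 377, against 6220 without the covariates.

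Htr2c encodes a Gq-coupled receptor whose RNA is edited by ADAR enzymes. It lies at chrX:143397056-143631820 on mm9 in 8 exonic blocks. Its lowest, median and highest normalised read counts were 633.7, 818 and 1096 in Foxp2hum/hum DMS, against 389.8, 695.4 and 1066 in Foxp2hum/hum DLS. In Foxp2hum/hum 11 of 12 DMS libraries lay above the DLS median. They were 458.2, 799.4 and 1069 in wild-type DMS, against 510.9, 674.6 and 887.7 in wild-type DLS. In wild-type 9 of 11 DMS libraries lay above the DLS median, and in both genotypes the ranges overlapped. Neither genotype alone passed: the log2 difference was 0.32 ± 0.12 (SE) in Foxp2hum/hum with a limma adjusted p of 0.0523, and 0.23 ± 0.13 (SE) in wild-type with a limma adjusted p of 0.222. Over both genotypes Htr2c was 1.21-fold higher in DMS, with a log2 difference of 0.28 ± 0.09 (SE) and a limma adjusted p of 0.0111.

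The choroid plexus is known for a very high level of Htr2c, and some captures held choroid plexus RNA. Ttr reached 9582 in wild-type DMS library 18, where Htr2c was 1068, and 6160 in Foxp2hum/hum DMS library 49, where Htr2c was 997.9. The highest Htr2c value, 1096, was in Foxp2hum/hum DMS library 84, which had 2873 normalised Ttr reads. High Htr2c also occurred without Ttr: Foxp2hum/hum DLS library 94 had 1066 Htr2c and 0 Ttr, and Foxp2hum/hum DMS library 31 had 992 Htr2c and 1.628 Ttr. The log2 levels of Htr2c and Ttr had a Pearson r of 0.40 over the 46 libraries and 0.15 after the group means were subtracted. Without libraries 18 and 49 the log2 difference of Htr2c over both genotypes was 0.24 with a limma adjusted p of 0.0296. With Ttr as a covariate it was 0.20 with a limma adjusted p of 0.246, which missed the threshold. The part of choroid plexus RNA in the Htr2c difference was not tested. The r of Htr2c with Drd1a was 0.15 over all libraries and 0.66 within groups, and with Drd2 it was -0.36 and 0.09.

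**Figure D2:**
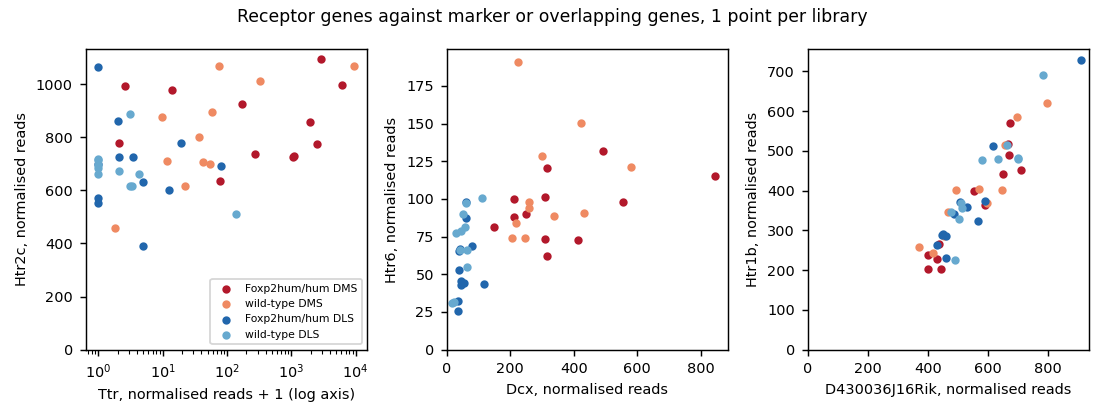
Htr2c against Ttr (log axis, with 1 added), Htr6 against Dcx and Htr1b against the overlapping gene D430036J16Rik, in normalised reads with 1 point per library, coloured by group. Htr2c reached 1068 in the library with the highest Ttr and 1066 in a library with 0 Ttr, and Htr1b and D430036J16Rik have an r of 0.92.

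The other 6 receptor genes did not pass the regional test in either genotype or over both. Htr2a, a Gq-coupled receptor best known from cortical pyramidal neurons, had lowest, median and highest normalised read counts of 45.87, 96.78 and 205.3 over the 23 DMS libraries, against 25.15, 87.58 and 200.5 over the 23 DLS libraries. Those ranges overlapped almost throughout, and the log2 difference over both genotypes was 0.46 with a limma adjusted p of 0.071, which passed the threshold when any of libraries 34, 65, 67, 74, 77 or 94 was left out. Htr2a also passed with scaling by total reads without mitochondrially encoded genes and with 1 or 3 surrogate variables (estimated hidden factors), where its lowest limma adjusted p was 0.00445. Htr3a ran from 3.172 through a median of 22.79 to 42.31 in DMS, against 0, 16.08 and 23.79 in DLS. Its log2 difference was 0.67 ± 0.30 (SE) with a limma adjusted p of 0.0884, and a 95% interval from 0.06 to 1.27. With Ttr as a covariate the log2 difference of Htr3a was 1.12 and passed, with a limma adjusted p of 0.0425. Htr4, a Gs-coupled receptor, ran from 15.3 through 34.79 to 68.6 in DMS, against 15.48, 29.41 and 43.25 in DLS, with a log2 difference of 0.27 and a limma adjusted p of 0.108, which passed the threshold without library 41 or 65. These genes had higher medians in DMS, but the differences did not pass the test.

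Htr7, the remaining Gs-coupled receptor, ran from 14.15 through a median of 34.79 to 61.38 in DMS, against 17.36, 40.73 and 79.67 in DLS, and its log2 difference was -0.24 with a limma adjusted p of 0.288. Htr1a, the inhibitory receptor of raphe neurons and of hippocampal and cortical targets, had 0, 10.94 and 31.91 normalised reads in DMS, against 0.9914, 8.505 and 26.02 in DLS. The Htr1a log2 difference over both genotypes was -0.02 and its 95% interval ran from -0.72 to 0.68, so a change of that size could not be told from the spread between libraries. Htr1b, the release-inhibiting receptor that projection neurons carry to their terminals, ran from 201.5 through 397.9 to 621.3 in DMS, against 226.1, 359.4 and 728.8 in DLS. Its log2 difference was -0.07 with a 95% interval from -0.34 to 0.20 and a limma adjusted p of 0.744.

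The Htr1b value cannot be given to Htr1b alone. D430036J16Rik, a long noncoding RNA gene on the opposite strand, overlaps 1065 of the 1273 bases that the annotation gives Htr1b at chr9:81524950-81526222, and its mean of 561 was 144% of that of Htr1b. The log2 levels of both genes had a Pearson r of 0.92 over the 46 libraries and 0.92 after the group means were subtracted. The table appears to be counted over whole gene spans on both strands, since 293 of 293 genes nested in another gene, each averaging 500 reads or more, never exceeded their host in any library. Reads of an Htr1b transcript and of D430036J16Rik in the shared bases can then fall in both values. RefSeq starts Htr1b further upstream: its promoter window, chr9:81527440-81527689, lies 1218 bases from the annotated start. That window is inside D430036J16Rik, at chr9:81525158-81538763. Htr1b reads from the bases in between can fall in the D430036J16Rik value alone.

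**Figure D3:**
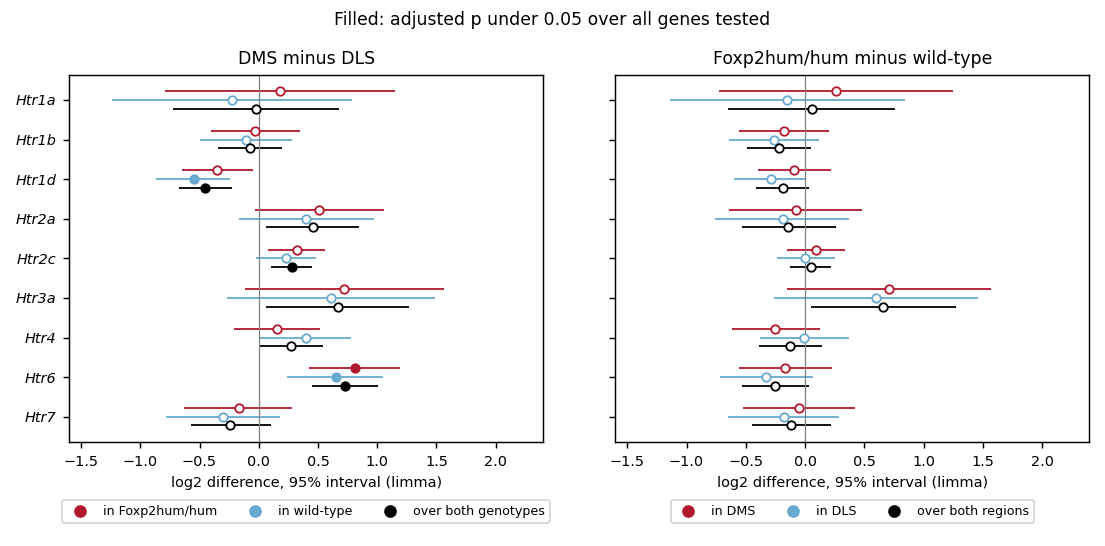
Log2 differences with 95% intervals from limma for the 9 receptor genes, DMS minus DLS on the left and Foxp2hum/hum minus wild-type on the right; filled points have an adjusted p under 0.05. Htr6, Htr1d and Htr2c have filled points on the left, and the right panel has 0 filled points.

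The genotype comparison asks whether humanised Foxp2 goes with a different level of the receptor genes. In these tests 0 of 9 receptor genes passed limma's test in DMS, where 0% of all genes passed, and 0 of 9 passed in DLS, where 0% of all genes passed. Over both regions the counts were 0 of 9 and 0%. At an unadjusted p under 0.05 the receptor genes numbered 0 in DMS, 0 in DLS and 1 over both regions, against 3.58%, 4.31% and 8.58% of all genes. edgeR's quasi-likelihood test and DESeq2 also called 0 of 9 in each of these comparisons. The interaction of genotype and region called 0 of 9 with limma, edgeR and DESeq2, and 0 of 9 had an unadjusted p under 0.05, against 0% and 1.64% of all genes.

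Htr3a was the gene with the unadjusted p under 0.05. Its lowest, median and highest normalised read counts were 9.894, 26.48 and 42.31 in Foxp2hum/hum DMS, against 3.172, 13.95 and 33.88 in wild-type DMS. Of 12 Foxp2hum/hum DMS libraries, 10 lay above the wild-type median, and the ranges overlapped. In DLS they were 2.788, 17.4 and 22.76 in Foxp2hum/hum, against 0, 15 and 23.79 in wild-type, and there 8 of 12 lay above the wild-type median. The log2 difference over both regions was 0.66 ± 0.30 (SE), a fold of 1.58 with a 95% interval from 1.03 to 2.41, and an unadjusted p of 0.0348 that limma's adjustment over all genes raised to 0.574. Without libraries 70 and 72, both wild-type, it was 0.46 with a limma adjusted p of 0.905.

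For several receptor genes the 95% intervals limited the size of a genotype difference, with all libraries treated as independent. DMS and DLS libraries may share an animal, so intervals over both regions may be too narrow. Over both regions the 95% interval lay inside a 1.5-fold change either way for 7 of 9 genes, all but Htr1a and Htr3a. In DMS alone it did so for 5, Htr1b, Htr1d, Htr2c, Htr6 and Htr7, and in DLS alone for 2, Htr2c and Htr4. Htr2c was the most tightly bounded: Foxp2hum/hum over wild-type was 1.03-fold over both regions, with an interval from 0.916 to 1.17. Htr1d in DLS was the nearest to a call among the rest, with a median of 168.5 in Foxp2hum/hum and 226.2 in wild-type. There 10 of 12 Foxp2hum/hum libraries lay below the wild-type median, the log2 difference was -0.29 ± 0.15 (SE), and limma's unadjusted p of 0.0611 became 0.843 after adjustment. Htr6 in DLS had medians of 49.35 in Foxp2hum/hum and 77.34 in wild-type, with a log2 difference of -0.33 ± 0.20 (SE) and a limma adjusted p of 0.843. The median log2 difference of the 9 genes over both regions was -0.13, against -0.00 for all genes.

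Levels of different receptor genes were first set side by side after division by exonic length. The table appears to be counted over whole gene spans, so this order holds for the exonic scale only. Per exonic kilobase Htr1b led in all groups, at 286 ± 104 (SD) normalised reads in Foxp2hum/hum DMS, 316 ± 98.8 in wild-type DMS, 286 ± 107 in Foxp2hum/hum DLS and 339 ± 97 in wild-type DLS, with the overlap described above. Htr2c followed in DMS at 91.3 ± 15.4 per exonic kilobase in Foxp2hum/hum and 86.9 ± 20.8 in wild-type, apart from Htr1d by more than their SDs. In DLS that gap closed: Htr2c had 74.1 ± 18.2 and Htr1d 58.4 ± 14.2 per exonic kilobase in Foxp2hum/hum, and Htr2c had 72.5 ± 9.78 and Htr1d 73.2 ± 22.5 in wild-type, within their spread. Htr6 and Htr2a came next and were not apart from each other in any group, at 40.4 and 36 per exonic kilobase in Foxp2hum/hum DMS, 46.4 and 37.5 in wild-type DMS, 24 and 27.3 in Foxp2hum/hum DLS, and 30.1 and 29 in wild-type DLS. Htr7, Htr3a and Htr4 had 11.4, 8.71 and 7.02 per exonic kilobase on average over all libraries, with neighbours in the order within the spread, and Htr1a had 2.45. Because intronic reads may be included, long genes can be ranked too high on this scale. Per kilobase of gene span the means over all libraries were 306 for Htr1b, 8.65 for Htr1d, 5.68 for Htr6, 3.23 for Htr2c, 2.45 for Htr1a, 1.53 for Htr3a, 1.46 for Htr2a, 0.391 for Htr7 and 0.228 for Htr4. Htr1b leads on both scales, and most of the order below it depends on which length is used.

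**Figure D4:**
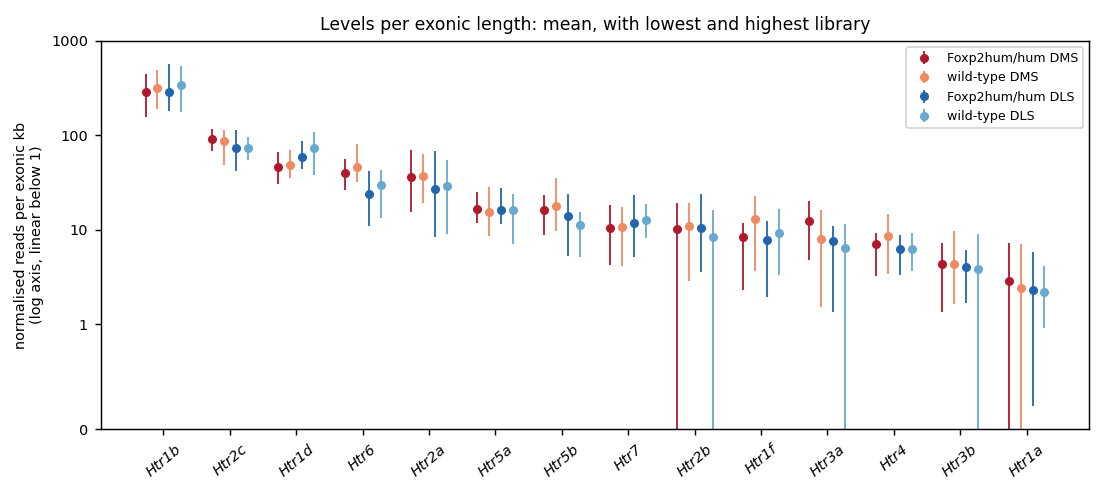
Mean normalised reads per exonic kilobase of 14 serotonin receptor genes in each group (points), with the lowest and highest library as bars; the y axis is logarithmic above 1 and linear below. On the exonic scale Htr1b is highest at 286 to 339, and Htr1a has a mean of 2.45. Below Htr1b the order differs when levels are divided by gene span.

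The other 5 serotonin receptor genes in the table, Htr1f, Htr2b, Htr3b, Htr5a and Htr5b, were all tested, and 0 of 5 passed in any comparison. Of all genes tested, 31.8% passed between regions over both genotypes, 18.1% within Foxp2hum/hum and 17.3% within wild-type. In the genotype comparisons and the interaction 0% of all genes passed. Htr5a, an inhibitory receptor, had a median of 87.56 over the 23 DMS libraries and 85.63 over the 23 DLS libraries, and a log2 difference of -0.02 with a 95% interval from -0.29 to 0.25. Htr5b had medians of 29.61 in DMS and 24.51 in DLS and a log2 difference of 0.41 with a limma adjusted p of 0.0645, and it overlaps Gm8217, whose mean was 80.1% of its own. Htr2b lies wholly inside Psmd1, a proteasome gene on the opposite strand with a mean of 1720, so its mean of 21.43 may hold Psmd1 reads.

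Of the serotonin neuron markers, only Tph2 was tested. Slc6a4, the serotonin transporter, and Fev, a transcription factor of serotonin neurons, had means of 1.078 and 1.335 normalised reads and were not tested; the highest Slc6a4 value was 13.48, in wild-type DLS library 70. Of the 10 genes of serotonin synthesis, storage, uptake and breakdown in the table, 8 were tested. In the DMS to DLS comparison over both genotypes 1 was higher and 3 were lower, against 16.5% and 15.3% of all genes. Within Foxp2hum/hum 0 were higher and 2 lower, against 9.33% and 8.82% of all genes, and within wild-type 0 were higher and 3 lower, against 8.54% and 8.72%. In the genotype comparisons 0 of 8 passed.

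Tph2, the enzyme that limits neuronal serotonin synthesis, was lower in DMS than in DLS. Its lowest, median and highest normalised read counts were 3.754, 8.909 and 38.25 in Foxp2hum/hum DMS, against 39.7, 55.86 and 87.43 in Foxp2hum/hum DLS. In wild-type they were 0, 8.719 and 27.06 in DMS, against 28.64, 62.3 and 85.41 in DLS. The ranges did not overlap in either genotype, and the log2 difference over both was -2.46 ± 0.25 (SE), 5.49-fold lower in DMS, with a limma adjusted p of 1.39e-11. Slc22a3, a low-affinity carrier that takes up serotonin and other monoamines, behaved likewise, at 100.6, 130.6 and 223.4 in Foxp2hum/hum DMS against 269.9, 381.6 and 537.1 in Foxp2hum/hum DLS. In wild-type the Slc22a3 values were 71.15, 132.1 and 199.4 in DMS, against 287.9, 358 and 442.8 in DLS. Its ranges did not overlap either, and it was 2.76-fold lower in DMS over both genotypes with a limma adjusted p of 1.55e-18. The share of all genes whose DMS and DLS ranges lie apart in this way was not counted. Slc18a2, the vesicular monoamine transporter, was 1.32-fold lower in DMS with a limma adjusted p of 0.00138, and Ddc, the decarboxylase that makes serotonin and dopamine, was 1.24-fold higher with a limma adjusted p of 0.0379. The Ddc call was lost when any of libraries 11, 24, 26, 43, 50, 60, 64, 65, 67, 74, 76, 77 or 89 was left out. It was also lost with quantile normalisation, array weights, Ttr as a covariate, and Ttr and Ccdc153 as covariates, where the log2 difference was 0.06. An overlapping gene has a mean of 16.8% of that of Ddc. Maoa, which breaks serotonin down, had a mean of 410.7 ± 50.37 (SD, 12 libraries) in Foxp2hum/hum DMS and 353.8 ± 53.61 (SD, 11 libraries) in wild-type DMS, a log2 difference of 0.22 whose limma adjusted p was 0.955.

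**Figure D5:**
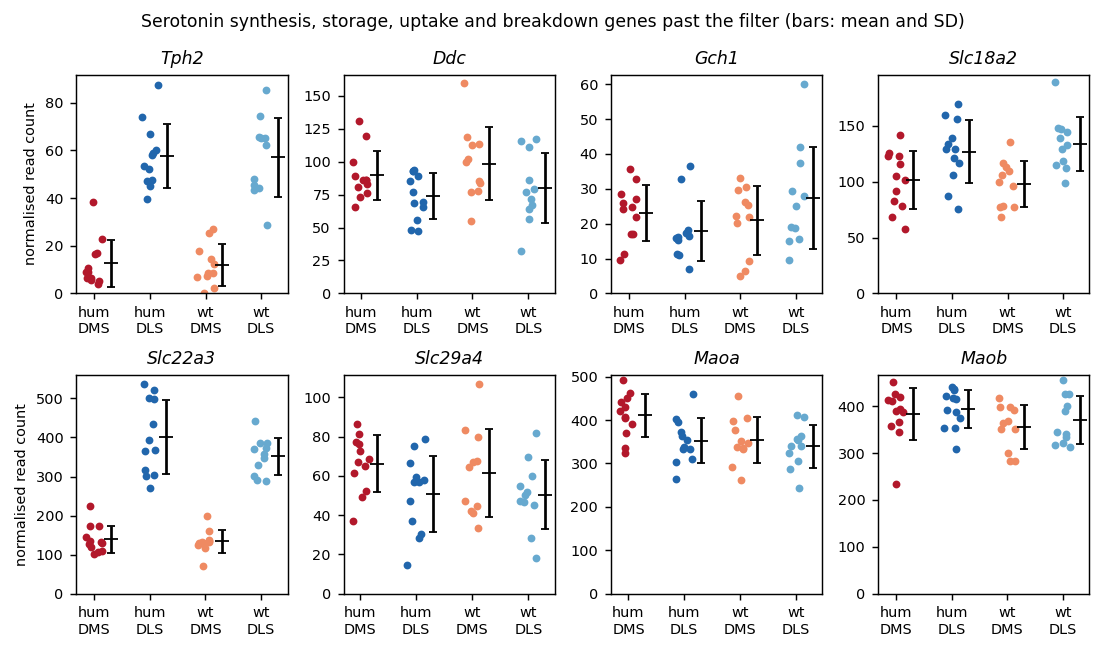
Normalised read count of the 8 tested genes of serotonin synthesis, storage, uptake and breakdown in every library (points), with mean and SD beside each group. Tph2 and Slc22a3 lie lower in every DMS library than in any DLS library of the same genotype.

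Genes of the proteins that the receptors act through differed in RNA level between the regions as well. Of 20 coupling and partner genes tested, 4 were higher and 8 lower in DMS than in DLS over both genotypes, against 16.5% and 15.3% of all genes. Within Foxp2hum/hum the counts were 3 higher and 5 lower, against 9.33% and 8.82% of all genes. Within wild-type they were also 3 higher and 5 lower, against 8.54% and 8.72%, while 0 of 20 passed between genotypes. The inhibitory G protein genes split: Gnai1 was 1.81-fold higher in DMS with a limma adjusted p of 1.46e-15, and Gnai2 was 1.31-fold higher with a limma adjusted p of 9.17e-09. Gnao1 was 1.35-fold lower in DMS with a limma adjusted p of 4.09e-05. Gnai3 and Gnaz had higher means in DMS in both genotypes. For Gnai3 they were 336.6 in Foxp2hum/hum and 359.1 in wild-type DMS, against 291.3 and 277.4 in DLS. For Gnaz they were 637.9 and 690.9, against 579.8 and 652.9, and it overlaps Rtdr1, whose mean was 101% of its own. Gnai1 had medians of 1424 in Foxp2hum/hum DMS and 1432 in wild-type DMS, against 756.1 in Foxp2hum/hum DLS and 735.5 in wild-type DLS. On the Gq branch, by which Htr2a and Htr2c act, the phospholipase genes Plcb4 and Plcb1 were 1.88-fold and 1.42-fold lower in DMS, with limma adjusted p-values of 2.54e-13 and 1.72e-12. Plcb1 contains 9630028H03Rik, whose mean was 58.5% of that of Plcb1. Gnal, the striatal form of the stimulatory G protein, was 1.38-fold lower in DMS with a limma adjusted p of 8.65e-07, and overlaps Mppe1, whose mean was 29.1% of its own. Gnas, the other stimulatory G protein gene of the list, had higher means in DMS. They were 8563 in Foxp2hum/hum and 8410 in wild-type DMS, against 7530 and 7599 in DLS. Gnas overlaps AF085738, whose mean was 98.5% of its own. The RNA editing enzymes Adar and Adarb1, which edit Htr2c, had log2 differences of 0.12 and -0.20 with limma adjusted p-values of 0.361 and 0.178.

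After group means were subtracted, the pairs with the highest Pearson r over 46 libraries were Htr1b with Htr2a at 0.62, Htr6 with Htr7 at 0.47 and Htr2a with Htr2c at 0.44. Htr2a also had an r of 0.62 with D430036J16Rik, which overlaps Htr1b, so the first pair cannot be given to Htr1b alone. These libraries share depth and composition, and the values are descriptions. Over all libraries the genes with the pattern most like Htr6 were Raver1 at an r of 0.78, Gpr12 at 0.76 and Celsr1 at 0.76. For Htr1d they were Cacna2d4 at 0.73, Lrtm2 at 0.73 and Klc2 at 0.72. For Htr2c they were Alcam at 0.84, Cdc42se2 at 0.78 and Hs6st2 at 0.75. For Htr1b they were Clstn3 at 0.87, Egr3 at 0.85 and Sik3 at 0.85, below the 0.92 of D430036J16Rik. For Htr2a they were Ptch1 at 0.76, Suv420h1 at 0.75 and Gaa at 0.75. The closest patterns had an r of 0.60 for Htr3a with Vasp, 0.60 for Htr7 with Inpp5k, 0.51 for Htr4 with Rbm14 and 0.48 for Htr1a with Usp13.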

How the data were processed

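Laser-captured striatum of 46 libraries (15 ng of RNA each, 3 flow cells) was sequenced. Per the submitters' processing notes, TopHat 1.4.1, bedtools, DESeq and the mm9 build were used. The deposited values are a signal normalised by the authors: read counts divided by DESeq size factors. Dividing by each library's step gave whole reads for 100% of values (tolerance 0.01 reads). Same-group libraries differed by more than counting error (lowest chi-square per degree of freedom 9.84). No source used here assigns libraries to flow cells, so that effect was not tested. Of the 25259 genes, 25023 were found by identifier in GENCODE M1, which gave positions. RefSeq promoters came from a GRCm38.p6 table and were placed on mm9 by exact match, for 6 of the 9 receptor genes.

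Tests used limma 3.58.1 in R 4.3.3 (lmFit, eBayes with a trend) on log2(value + 1) of 19561 genes (mean value 10 or more), with 4 group means over all libraries, two-sided, with Benjamini-Hochberg adjustment over all genes tested and a threshold of 0.05. Fold changes are on that scale and understate changes of low genes. edgeR 4.0.16 and DESeq2 1.42.0 on recovered reads, sva 3.50.0, other scalings, covariates and left-out libraries were alternatives. The scripts were tested on simulated data. Receptor genes, lists and tests were chosen with earlier results of these data known. Genes were named by list, as the up to 5 called genes of each list with the smallest p, and, for likeness, as the 3 with the highest correlation. D430036J16Rik, Gm8217, Psmd1, 9630028H03Rik, Mppe1, Rtdr1 and AF085738 are named for their overlap. Gnao1, Gnai3, Gnaz, Gnas, Maoa and the editing enzymes were chosen after their values were seen.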

Additional observations from a re-analysis of the deposited data

How the results depend on the processing

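The receptor gene counts of the 3 genotype comparisons and of the interaction were 0 under every alternative run, and the leave-one-out fits gave 0 as well. The Foxp2hum/hum regional count, 1 as reported, was 2 with quantile normalisation, TMM factors, total reads without mitochondrially encoded genes, array weights, 1 surrogate variable or without libraries 70 and 72, was 4 with 3 surrogate variables and ran from 1 to 2 with each library left out. Where the count was 2 the added gene was Htr2c, whose limma adjusted p lay between 0.0138 and 0.127 with each library left out; with 3 surrogate variables Htr1d was among the added genes, with a limma adjusted p of 0.0446. The wild-type count, 2 as reported, was 1 with Ttr as a covariate and ran from 2 to 3 with each library left out. Over the 18 other alternatives it ran from 0 to 3. The count over both genotypes, 3 as reported, ran from 3 to 6 with each library left out, with 6 without wild-type DMS library 65, and was 4 with total reads without mitochondrially encoded genes and with 1 or 3 surrogate variables. With Ttr and Ccdc153 as covariates all 3 regional counts were 0. In that fit the log2 difference changed sign for Htr1d (0.14 in Foxp2hum/hum, 0.06 in wild-type, 0.10 over both), Slc18a2 (0.01 over both), Gnao1 (0.14, 0.25 and 0.19) and Gnal (0.02, 0.09 and 0.06). The lost calls of Htr6 and Htr2c came with larger log2 differences there: Htr6 had 1.43 in Foxp2hum/hum, 1.39 in wild-type and 1.41 over both, with limma adjusted p-values of 0.116, 0.175 and 0.115, and Htr2c had 0.85 over both with 0.112. Htr2a had 2.20 over both with a limma adjusted p of 0.0666. The cause was not tested.

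Libraries 70 and 72 are a wild-type DLS and a wild-type DMS library, with 137.2 and 40.8 normalised Ttr reads. Leaving out libraries 18 and 49, which have the highest Ttr, and using Slc17a7 as a covariate were chosen after seeing the data, and each gave counts of 1, 2 and 3 in the regional comparisons. With scaling by total reads without mitochondrially encoded genes the median regional log2 difference of all genes was 0.14 in Foxp2hum/hum and 0.10 over both genotypes, against 0.02 and 0.01 as reported. Restricting the fit to the groups compared was not possible for the comparisons over both genotypes, both regions or the interaction, which use all libraries. No paired analysis was possible because the library numbers are not shared between groups. Htr1a and Htr3a, with the lowest mean values of the 9 genes (10.87 and 18.13), were those whose genotype intervals over both regions exceeded a 1.5-fold change; the part of depth in this was not tested.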
